A study of Mus musculus with 16 samples.

Results

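The genes described here set the tone of blood vessels through angiotensin II, nitric oxide and the natriuretic peptides: Agt, Ren1, Ace, Agtr1a, Agtr2, Nos3, Gucy1a1, Gucy1b1, Nppc and Npr1. They were taken from mouse retina arrays by gene symbol, current or older, with the older names Gucy1a3 and Gucy1b3 read as Gucy1a1 and Gucy1b1. All 10 genes were found, of 25695 on the array, with 25 probes of 43426. Each of the 25 probes passed the filter on low signal, which asked for a Cy3 signal well above background on at least 3 arrays.

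Renin, encoded by Ren1, cuts angiotensinogen, the product of Agt, and angiotensin-converting enzyme, encoded by Ace, turns the fragment into angiotensin II. That peptide constricts vessels through the type 1 receptor, which Agtr1a encodes in mouse, while the type 2 receptor, Agtr2, is mostly described as opposing it. Endothelial nitric oxide synthase, Nos3, makes nitric oxide in the vessel lining, and the gas relaxes neighbouring muscle and pericytes by activating soluble guanylate cyclase, a dimer of the products of Gucy1a1 and Gucy1b1 that makes cyclic GMP. C-type natriuretic peptide, the product of Nppc, and Npr1, the receptor of the atrial and B-type peptides, also lead to cyclic GMP. In the retina, guanylate cyclase is known from neurons as well as vessels, and angiotensinogen from glia.

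C57Bl6 pups had a protein injected into the vitreous of the eye, and retinas were taken 24 h later. The groups were VEGF-A (5 arrays, 1 µg at 8 days of age), Dll4-Fc (4 arrays, 4 µg at 8 days), VEGF Trap (3 arrays, dose and age not given in the sources used here) and the control hFc (4 arrays, 4 µg at 8 days). VEGF-A is the growth factor that drives vessel growth and leakage, and VEGF Trap is a soluble decoy receptor that binds it. Dll4-Fc joins the Notch ligand Dll4 to an antibody Fc tail, and hFc is the Fc protein used as control. Each array carried one sample's RNA in the dye Cy3 and a pool of the experiment's RNA in Cy5, with no dye swap. Every value below is a log2 ratio of sample over that pool, and every difference is between 2 group means of it, unless a Cy3 signal is named. A difference is given with its standard error and a group mean with its SD. The labels do not tie the samples to separate animals, so p-values measure only the spread between these samples, which may be technical. The titles of hFc 1 and hFc 2 share a code, and so do those of VEGF-A 4 and VEGF Trap 3. The sources used here do not say what it means, so hFc may hold fewer than 4 separate samples.

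Sequences are shown for members that changed. The array probes come first, since a probe decides which transcripts are measured, and capitals mark a stop codon.
Nos3 (chromosome 5), probe A_51_P139651: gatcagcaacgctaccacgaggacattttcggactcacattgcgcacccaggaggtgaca
Gucy1a1 (chromosome 3), probe A_51_P199993: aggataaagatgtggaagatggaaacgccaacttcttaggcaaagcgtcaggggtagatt
Nppc (chromosome 1), probe A_51_P401894: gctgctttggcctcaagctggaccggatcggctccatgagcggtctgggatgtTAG
The Nos3 and Gucy1a1 probes have an open reading frame over all 60 bases. The first 56 of the 60 bases of the Nppc probe are shown, and they end with an in-frame stop codon. Not every probe is a separate measurement: the 25 probes had 23 different sequences, because A_51_P199987 and A_66_P105213 of Gucy1a1 were identical and so were A_51_P253298 and A_66_P126516 of Gucy1b1.

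The second set is the 250 bases before the transcription start of Agt and Nppc, the members that set the Dll4-Fc samples apart, from RefSeq on GRCm38.p6. Of the 10 members, 8 had such an entry. Both strands were searched for TATAAA (the TATA box), GGGCGG (a GC box), TGGGAA (the core bound by the Notch effector RBPJ) and TTCNNNGAA (the STAT palindrome), and capitals mark each match.
Agt, chr8:124569707-124569956, minus strand: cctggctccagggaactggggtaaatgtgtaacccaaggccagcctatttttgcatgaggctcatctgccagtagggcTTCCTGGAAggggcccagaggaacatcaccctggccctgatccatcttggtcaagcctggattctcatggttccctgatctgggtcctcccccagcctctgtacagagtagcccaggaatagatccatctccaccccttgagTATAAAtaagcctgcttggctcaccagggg
Nppc, chr1:86670574-86670823, minus strand: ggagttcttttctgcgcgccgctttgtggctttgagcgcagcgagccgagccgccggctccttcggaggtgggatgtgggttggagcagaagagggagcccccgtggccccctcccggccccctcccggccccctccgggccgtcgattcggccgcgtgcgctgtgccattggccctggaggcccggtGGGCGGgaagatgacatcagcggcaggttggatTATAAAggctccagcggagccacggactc
Both windows held TATAAA, beginning at -30 in Agt and at -29 in Nppc counted from the start. The Agt window also held TTCCTGGAA at -172, a match to the STAT palindrome, and the Nppc window held GGGCGG at -62. Neither window held TGGGAA. Of the 32851 promoter entries, each searched over the same length, 12.4% held TATAAA, 32.7% held GGGCGG, 21.6% held TGGGAA and 7.02% held TTCNNNGAA. These are matches of letters only.

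Across the 16 arrays the median Cy3 signal was 142 to 313, and the 95th percentile of negative control spots was 1.96 to 5.02. The samples had the signal of retina: Sag, the arrestin of rods, ranged from 42987 to 123842 in Cy3, while the lens crystallin Cryaa ranged from 479 to 90861. Slide 1 carried hFc only, slide 2 carried Dll4-Fc only, and slides 3 and 4 each carried VEGF-A and VEGF Trap arrays. Slide and treatment therefore cannot be told apart in any comparison with hFc or Dll4-Fc, and VEGF-A against VEGF Trap is also given with slide as a block and within slides. The scanner software had marked 2350 to 2599 spots per array as outliers on the hFc slide and 12 to 213 elsewhere. Rows with over 10% of hFc spots marked lay between rows 67 and 231 of 532, and the marks touched 3 member probes, that of Agt and both of Nos3. Marked spots were left out of the fit, and both genes are given without and with them.

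The probes that changed belonged to 4 genes: Nos3, Agt, Nppc and Gucy1a1. In VEGF-A against hFc 2 of 24 member probes with a value rose and none fell, where 5.68% of all probes rose and 3.3% fell. In Dll4-Fc against hFc 1 of 24 rose and none fell (all probes 2.65% rising and 1.37% falling). In VEGF Trap against hFc limma called 0 of 24 at an adjusted p of 0.05, and 4 had an unadjusted p under 0.05 (all probes 0.903% rising and 1.79% falling). In VEGF-A against VEGF Trap 2 of 25 rose and 4 fell (all probes 9.76% rising and 7.11% falling). In Dll4-Fc against VEGF-A 1 rose and 3 fell (all probes 5.42% rising and 6.71% falling), and in Dll4-Fc against VEGF Trap 1 rose and 1 fell (all probes 7.17% rising and 4.82% falling). The median change of member probes ran from -0.23 to 0.08 over the 6 comparisons, and that of all probes from -0.04 to 0.01. These shares are of the order of the background, so the results lie in single genes rather than in the set. Comparisons that name the same group share its arrays.

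Counts against hFc depended on the scaling. In the Cy3 channel alone, scaled to each array's 75th percentile, the median of all probes shifted to -0.30 in VEGF-A, -0.28 in Dll4-Fc and -0.26 in VEGF Trap against hFc. There 2 member probes rose and 14 fell of 24 in VEGF-A against hFc, where 3.57% of all probes rose and 30.5% fell. In Dll4-Fc against hFc 1 rose and 11 fell (all probes 1.94% rising and 19.7% falling), and in VEGF Trap against hFc none rose and 6 fell (all probes 0.463% rising and 20.4% falling). After normexp background correction and loess, 2 rose and 5 fell in VEGF-A against hFc (all probes 6.72% rising and 4.18% falling). None of these added falls was called in the ratios used below, and those of VEGF-A and Dll4-Fc against hFc were mostly on probes of Gucy1a1 and Gucy1b1.

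**Figure D1:**
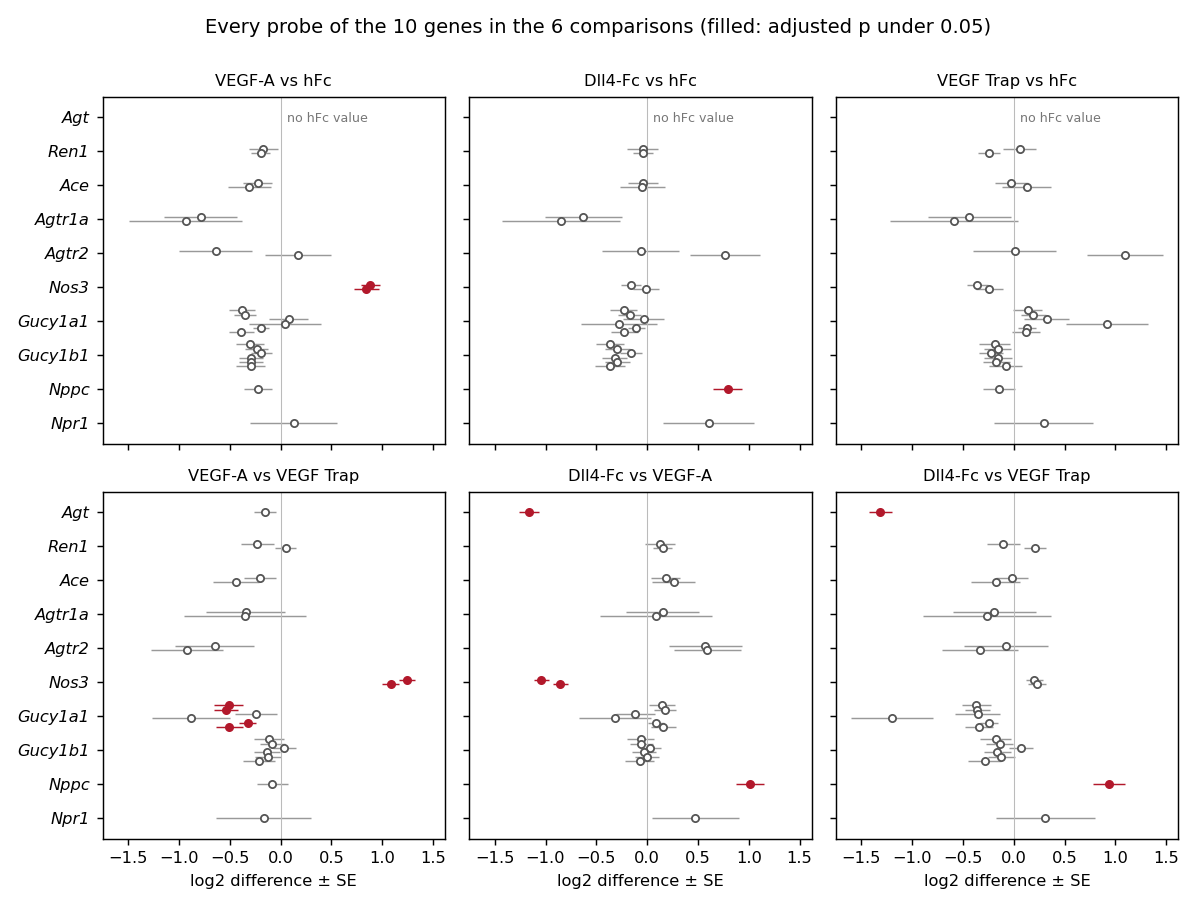
Log2 difference with its standard error for every probe of the 10 genes in 6 comparisons, one panel each. Filled red points passed an adjusted p of 0.05. Nos3 stands right of 0 in both comparisons led by VEGF-A and left of 0 in Dll4-Fc against VEGF-A, Agt stands left of 0 in both Dll4-Fc comparisons in which it has a value, and Nppc stands right of 0 in all 3 Dll4-Fc comparisons.

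Nos3, the endothelial nitric oxide synthase, rose with VEGF-A. On probe A_51_P139651 the VEGF-A samples were at 0.73, 0.65, 0.78, 0.69 and 0.87, and the hFc samples at -0.19 and -0.09, with hFc 1 and hFc 2 (-0.35 and -0.41) left out as marked spots. On probe A_66_P105929 the VEGF-A samples were at 0.57, 0.49, 0.64, 0.54 and 0.66, and hFc 1 was at -0.26, with the other 3 hFc spots (-0.51, -0.59 and -0.48) left out. Every VEGF-A sample was above every hFc sample on both probes, marked spots included. The difference was 0.88 ± 0.09 (adjusted p = 2.83e-05) on the first probe, a 1.85-fold rise, and 0.84 ± 0.13 (adjusted p = 0.000856) on the second, which rests on 1 hFc array taken to vary like the other groups. With marked spots kept the differences were 1.00 ± 0.08 and 1.04 ± 0.08 (adjusted p = 4.99e-07 and 2.71e-07). In the Cy3 channel alone the first probe's difference was 0.53 (adjusted p = 0.0112).

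Against VEGF Trap the rise of Nos3 was larger. The VEGF Trap samples were at -0.43, -0.47 and -0.61 on A_51_P139651, below every VEGF-A sample. VEGF-A minus VEGF Trap was 1.24 ± 0.08 (adjusted p = 1.88e-07), a 2.37-fold difference, and 1.08 ± 0.08 (adjusted p = 2.13e-06) on the other probe. With slide as a block these were 1.25 and 1.07 (adjusted p = 0.000154 and 0.000277). Within slide 3 they were 1.14 and 1.03 (adjusted p = 0.0162 and 0.0301), and within slide 4, which held 1 VEGF Trap array, 1.38 and 1.12 (adjusted p = 0.0594 and 0.0695). The Dll4-Fc samples were at -0.36, -0.15, -0.34 and -0.36, also below every VEGF-A sample. Dll4-Fc minus VEGF-A was -1.04 ± 0.08 (adjusted p = 5.85e-07) and, on A_66_P105929, -0.85 ± 0.08 (adjusted p = 8.89e-06).

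The group means on A_51_P139651 were 0.74 ± 0.08 (SD, n = 5) with VEGF-A, -0.30 ± 0.10 (n = 4) with Dll4-Fc, -0.50 ± 0.09 (n = 3) with VEGF Trap and -0.14 ± 0.08 (n = 2) with hFc. The 3 groups other than VEGF-A were not separated by the test in these ratios. Dll4-Fc minus hFc was -0.16 ± 0.10 (adjusted p = 0.587) on this probe and -0.01 ± 0.13 (adjusted p = 0.994) on the other, and -0.04 ± 0.09 and 0.19 ± 0.09 with marked spots kept. Dll4-Fc minus VEGF Trap was 0.20 ± 0.09 (adjusted p = 0.154) on this probe and 0.23 ± 0.09 (adjusted p = 0.117) on the other. On both probes every Dll4-Fc sample lay above every VEGF Trap sample. VEGF Trap minus hFc was -0.36 ± 0.10 (adjusted p = 0.0832) on this probe and -0.24 ± 0.13 (adjusted p = 0.347) on the other. With marked spots kept these last were -0.24 ± 0.09 and -0.04 ± 0.09, so the gap between VEGF Trap and hFc depended on which hFc spots were read. It was called in the Cy3 channel alone, at -0.74 and -0.63 (adjusted p = 0.00593 and 0.0461), where the median of all probes was -0.26. With no filter on dim probes the first probe was called too, at the same -0.36 (adjusted p = 0.0398).

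**Figure D2:**
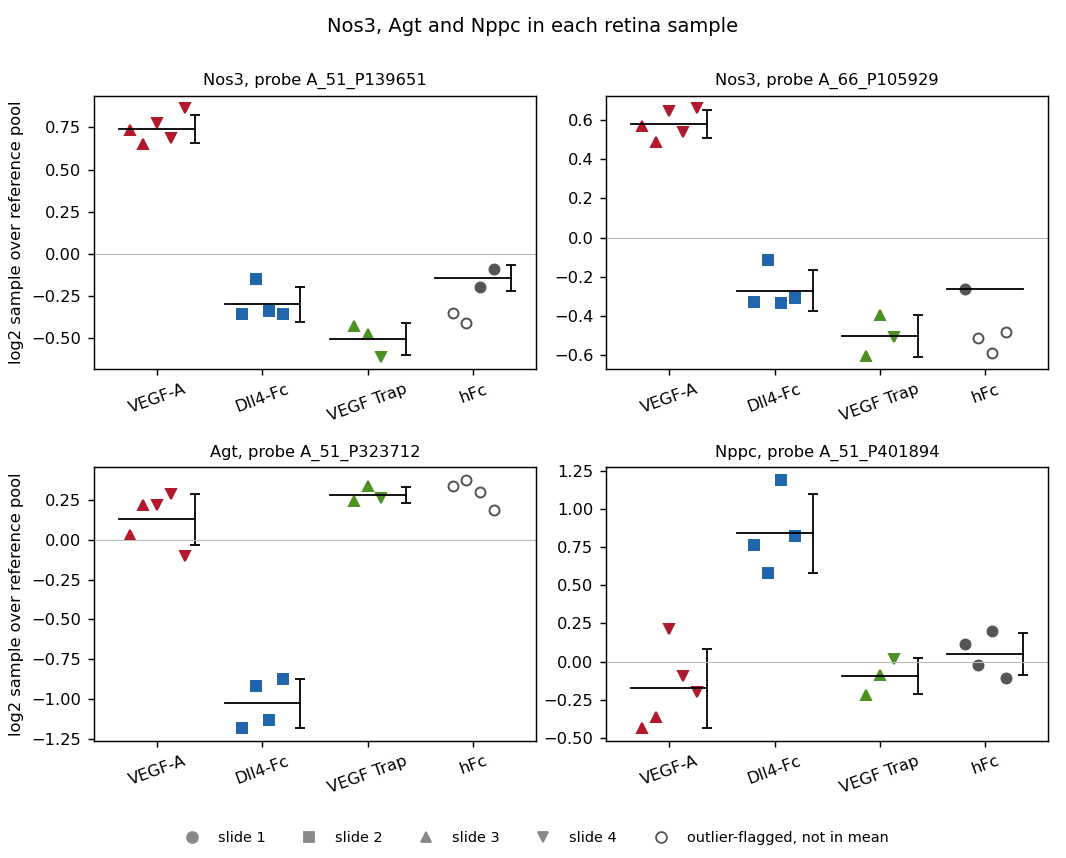
Log2 sample over reference for each array, with the group mean (line) and SD (bar), for both Nos3 probes, Agt and Nppc. Symbols give the slide, and open symbols are outlier-marked spots left out of the means. The VEGF-A samples stand above all others for Nos3, the Dll4-Fc samples stand below all others for Agt, at -1.19 to -0.88, and above all others for Nppc, at 0.58 to 1.19.

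Most markers on an endothelial list rose with VEGF-A, as Nos3 did. Some also moved in comparisons where Nos3 was not called in these ratios. Of 15 endothelial markers, 11 rose and 1 fell in VEGF-A against hFc (median 1.07), 5 rose and none fell in Dll4-Fc against hFc (median 0.24), and none rose and 11 fell in VEGF Trap against hFc (median -0.57). In VEGF-A against VEGF Trap 12 rose and none fell (median 1.63), and 13 rose with slide as a block. In Dll4-Fc against VEGF-A 3 rose and 10 fell (median -0.85), and in Dll4-Fc against VEGF Trap 13 rose and none fell (median 0.78). Their mean ratio was 0.46 to 0.61 in VEGF-A samples, -0.15 to -0.02 in Dll4-Fc samples, -1.01 to -0.84 in VEGF Trap samples and -0.44 to -0.33 in hFc samples. Their summed Cy3 signal was 159349 to 184469 with VEGF-A, 98113 to 159281 with Dll4-Fc, 83036 to 107124 with VEGF Trap and 64398 to 78572 with hFc, and all 15 were above background on all arrays. Nos3 minus the list's mean on the same array was 0.23 ± 0.08 (SD, n = 5) in VEGF-A samples, -0.23 ± 0.12 (n = 4) in Dll4-Fc samples, 0.43 ± 0.07 (n = 3) in VEGF Trap samples and 0.29 ± 0.09 (n = 2) in hFc samples. With marked spots kept, Nos3 averaged -0.26 over the 4 hFc arrays, where the list's mean was -0.39. The hFc value therefore depends on which spots are read. Relative to these markers the Dll4-Fc samples had the lowest mean of Nos3 and the VEGF Trap samples the highest. In bulk tissue fewer cells of a type and less RNA per cell cannot be told apart, and the part of endothelial cells in the Nos3 values was not tested.

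Agt, angiotensinogen, fell with Dll4-Fc. The Dll4-Fc samples were at -1.19, -0.92, -1.14 and -0.88, the VEGF-A samples at 0.03, 0.22, 0.22, 0.29 and -0.10, and the VEGF Trap samples at 0.25, 0.34 and 0.26. All 4 Dll4-Fc samples were below every other sample. Dll4-Fc minus VEGF-A was -1.16 ± 0.10 (adjusted p = 6.11e-06), a 2.23-fold lower level, and Dll4-Fc minus VEGF Trap was -1.31 ± 0.11 (adjusted p = 2.01e-05), 2.48-fold lower. The VEGF-A and VEGF Trap samples overlapped. They differed by -0.15 ± 0.11 (adjusted p = 0.384), and by -0.15 with slide as a block, -0.17 within slide 3 and -0.13 within slide 4.

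Against hFc, Agt has no value in the fit, because its only probe, in row 88, was marked as non-uniform in Cy3 on all 4 hFc arrays. The marked spots read 0.34, 0.38, 0.30 and 0.19, with Cy3 signals of 3061 to 4026. With marked spots kept, Dll4-Fc minus hFc was -1.33 ± 0.10 (adjusted p = 1e-06, 2.52-fold lower). In that fit VEGF-A minus hFc was -0.17 ± 0.09 (adjusted p = 0.305) and VEGF Trap minus hFc was -0.02 ± 0.11 (adjusted p = 0.944). The values against hFc rest on spots that the scanner software rejected, while those of Dll4-Fc against VEGF-A and VEGF Trap do not.

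Müller glia genes fell in the same samples as Agt. Of 11 Müller glia markers none rose and 8 fell in Dll4-Fc against hFc (median -0.80), 1 rose and 7 fell in Dll4-Fc against VEGF-A (median -0.81), and none rose and 10 fell in Dll4-Fc against VEGF Trap (median -0.98). The list's mean ratio was -1.16 to -0.55 in Dll4-Fc samples, -0.26 to 0.17 in VEGF-A samples, 0.04 to 0.38 in VEGF Trap samples and 0.03 to 0.12 in hFc samples. Its summed Cy3 signal was 157242 to 345376 with Dll4-Fc, 352536 to 420779 with VEGF-A, 447474 to 484056 with VEGF Trap and 222191 to 269509 with hFc, and all 11 were above background on all arrays. Agt minus the list's mean was -0.08 ± 0.22 (SD, n = 4) in Dll4-Fc samples, 0.24 ± 0.16 (n = 5) in VEGF-A samples and 0.04 ± 0.16 (n = 3) in VEGF Trap samples, a narrower spread of means than in Agt itself. Of 7 astrocyte markers 1, Gfap, rose and none fell in Dll4-Fc against hFc (median 0.11). In Dll4-Fc against VEGF-A none rose and 2 fell (median -0.28), Gfap at -1.23 ± 0.15 and Aldh1l1 at -0.41 ± 0.09. In Dll4-Fc against VEGF Trap 1, Gfap, rose and none fell (median 0.10). Agt minus the astrocyte list's mean was -1.003 ± 0.23 (SD, n = 4) in Dll4-Fc samples, -0.09 ± 0.16 (n = 5) in VEGF-A samples and 0.35 ± 0.05 (n = 3) in VEGF Trap samples. The part of glial cells in the Agt values was not tested.

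**Figure D3:**
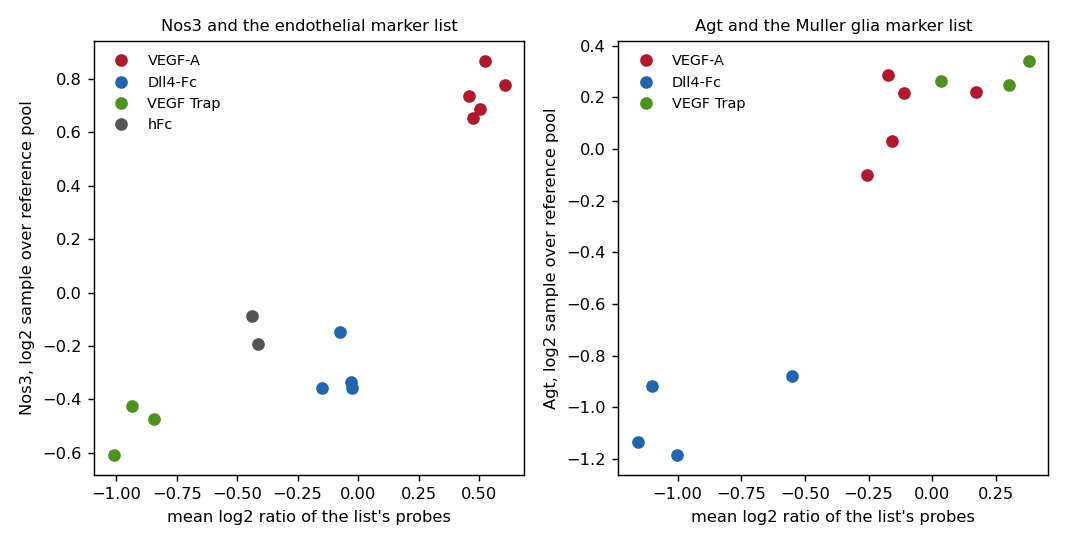
Left, Nos3 on probe A_51_P139651 against the mean log2 ratio of 15 endothelial markers. Right, Agt against that of 11 Müller glia markers, with 1 point for each array. The VEGF-A arrays lie at the high end of both axes for Nos3, and the Dll4-Fc arrays at the low end of both axes for Agt.

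Nppc, the gene of C-type natriuretic peptide, rose with Dll4-Fc. Its single probe read 0.76, 0.58, 1.19 and 0.83 in Dll4-Fc samples and -0.43, -0.36, 0.21, -0.09 and -0.20 in VEGF-A samples. It read -0.22, -0.09 and 0.02 in VEGF Trap samples and 0.12, -0.02, 0.20 and -0.11 in hFc samples. The Dll4-Fc samples were above every other sample. Dll4-Fc minus hFc was 0.79 ± 0.15 (adjusted p = 0.00412), a 1.73-fold rise, Dll4-Fc minus VEGF-A was 1.01 ± 0.14 (adjusted p = 9.92e-05), and Dll4-Fc minus VEGF Trap was 0.93 ± 0.16 (adjusted p = 0.00132). The other 3 groups overlapped, with VEGF-A at -0.17 ± 0.26 (SD, n = 5), VEGF Trap at -0.09 ± 0.12 (n = 3) and hFc at 0.05 ± 0.14 (n = 4). In the Cy3 channel alone Nppc was called lower in VEGF-A against hFc, at -0.50 (adjusted p = 0.0346), where the median of all probes was -0.30.

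The Cy3 signal of Nppc was 93.3 to 132 in Dll4-Fc samples, 44.2 to 75.1 in VEGF-A samples, 57.7 to 89.7 in VEGF Trap samples and 39.7 to 47.8 in hFc samples. After normexp background correction and loess the differences stayed called, at 0.53 against hFc, 0.70 against VEGF-A and 0.69 against VEGF Trap. Microglia and macrophage markers rose in the same samples: 9 of 10 with a value rose and 1 fell in Dll4-Fc against hFc (median 0.80), 10 of 11 rose in Dll4-Fc against VEGF-A and 8 of 11 in Dll4-Fc against VEGF Trap. Their mean ratio was 0.44 to 0.65 in Dll4-Fc samples, -0.44 to -0.26 in VEGF-A samples, -0.20 to -0.10 in VEGF Trap samples and -0.34 to -0.11 in hFc samples. The summed Cy3 signal was 54046 to 68282 with Dll4-Fc, 31533 to 39020 with VEGF-A, 39980 to 58302 with VEGF Trap and 23223 to 30536 with hFc. All 11 were above background on all arrays, and their part in the Nppc values was not tested. Nppc minus the endothelial list's mean was 0.91 ± 0.24 (SD, n = 4) in Dll4-Fc samples, -0.69 ± 0.20 (n = 5) in VEGF-A samples, 0.84 ± 0.17 (n = 3) in VEGF Trap samples and 0.44 ± 0.14 (n = 4) in hFc samples.

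Gucy1a1, the alpha subunit of soluble guanylate cyclase, was lower with VEGF-A than with VEGF Trap on 4 of its 6 probes. On A_51_P199993 the VEGF-A samples were at -0.21, -0.18, -0.51, -0.22 and -0.05, and the VEGF Trap samples at 0.51, 0.0027 and 0.40. The groups did not overlap, though VEGF Trap 2 lay next to the highest VEGF-A sample. The difference was -0.54 ± 0.12 (adjusted p = 0.00518), 1.45-fold lower. It was -0.51 ± 0.14 (adjusted p = 0.0203) on A_51_P199987, -0.50 ± 0.13 (adjusted p = 0.018) on A_66_P105213, which has the same sequence, and -0.33 ± 0.09 (adjusted p = 0.0178) on A_66_P104879.

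These Gucy1a1 calls did not hold under every setting. With slide as a block A_66_P104879 alone was called, at -0.36 (adjusted p = 0.0413), and A_51_P199993 was at -0.54 (adjusted p = 0.0689). The 4 probes ran from -0.45 to -0.34 within slide 3 and from -0.72 to -0.24 within slide 4, with none called there. Without VEGF Trap 1, and again without VEGF Trap 3, A_51_P199993 alone stayed called. The remaining probes, A_52_P452540 and A_52_P493965, had Cy3 signals of 15.6 to 70.3 and 11.7 to 163. With all arrays they were called in no comparison of these ratios. In the Cy3 channel alone A_52_P452540 was called lower in Dll4-Fc against hFc (-0.73, adjusted p = 0.0392) and against VEGF Trap (-0.91, adjusted p = 0.0344). Without Dll4-Fc 2, A_52_P493965 was called lower in Dll4-Fc against VEGF Trap (-1.47, adjusted p = 0.0268).

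Of 16 retinal neuron markers none rose and 3 fell in the same comparison (median -0.30), and none rose and 2 fell with slide as a block (median -0.28). Their mean ratio was -0.36 to -0.19 in VEGF-A samples and -0.07 to 0.17 in VEGF Trap samples. Of 14 mural markers, which mark pericytes and smooth muscle, 6 rose and 2 fell (median 0.32), and the same counts held with slide as a block. Their mean ratio was 0.28 to 0.34 in VEGF-A samples and -0.93 to -0.51 in VEGF Trap samples. All markers of both lists were above background on all arrays, and their part in the Gucy1a1 values was not tested.

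Against hFc no Gucy1a1 probe was called in these ratios. On the same 4 probes VEGF-A minus hFc was -0.38 to -0.19 (adjusted p of 0.0588 to 0.165), and Dll4-Fc minus hFc was -0.23 to -0.11 (adjusted p of 0.544 to 0.687). The group means on A_51_P199993 were -0.23 ± 0.17 (SD, n = 5) with VEGF-A, -0.06 ± 0.08 (n = 4) with Dll4-Fc, 0.30 ± 0.27 (n = 3) with VEGF Trap and 0.11 ± 0.08 (n = 4) with hFc. VEGF Trap and hFc, at the top of that order, differed by 0.19 ± 0.12 (adjusted p = 0.413). Under other settings VEGF-A against hFc passed the threshold. A_51_P199993 was called lower with slide as a random block (-0.35, adjusted p = 0.0463) and with the authors' deposited ratios (-0.35, adjusted p = 0.0444). Without VEGF-A 5 it was called as well (-0.39, adjusted p = 0.0414), and so was A_66_P105213. The random block, with a fitted slide correlation of -0.023, cannot separate slide from treatment here, because hFc filled slide 1 alone. After normexp and loess 3 probes were called (-0.45 to -0.30, adjusted p of 0.00836 to 0.0311), and in the Cy3 channel alone 3, and 5 in Dll4-Fc against hFc.

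Gucy1b1, the beta subunit of the same enzyme, was not called on any of its 6 probes in any of the 6 comparisons of these ratios. VEGF-A minus hFc was -0.30 to -0.19 (adjusted p of 0.149 to 0.318) and Dll4-Fc minus hFc was -0.37 to -0.16 (adjusted p of 0.255 to 0.648). On A_66_P126516 the means were -0.14 ± 0.17 (SD, n = 5) with VEGF-A, -0.15 ± 0.22 (n = 4) with Dll4-Fc, -0.02 ± 0.11 (n = 3) with VEGF Trap and 0.15 ± 0.17 (n = 4) with hFc. The 95% interval of VEGF-A minus hFc on that probe, not adjusted for the number of probes, ran from -0.54 to -0.04. In the Cy3 channel alone all 6 were called lower in VEGF-A against hFc, at -0.64 to -0.45, and in Dll4-Fc against hFc, at -0.60 to -0.53, and 3 in VEGF Trap against hFc, with the median of all probes shifted as given above. After normexp and loess 2 were called in VEGF-A against hFc, A_52_P592835 at -0.37 and A_66_P126516 at -0.37 (adjusted p = 0.0481 and 0.0407). The probes read 1 gene on 1 set of arrays, so their common sign counts once. Over the 16 arrays Gucy1a1 and Gucy1b1, both on chromosome 3, had a Pearson r of 0.66, as a description of arrays that share groups and slides.

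**Figure D4:**
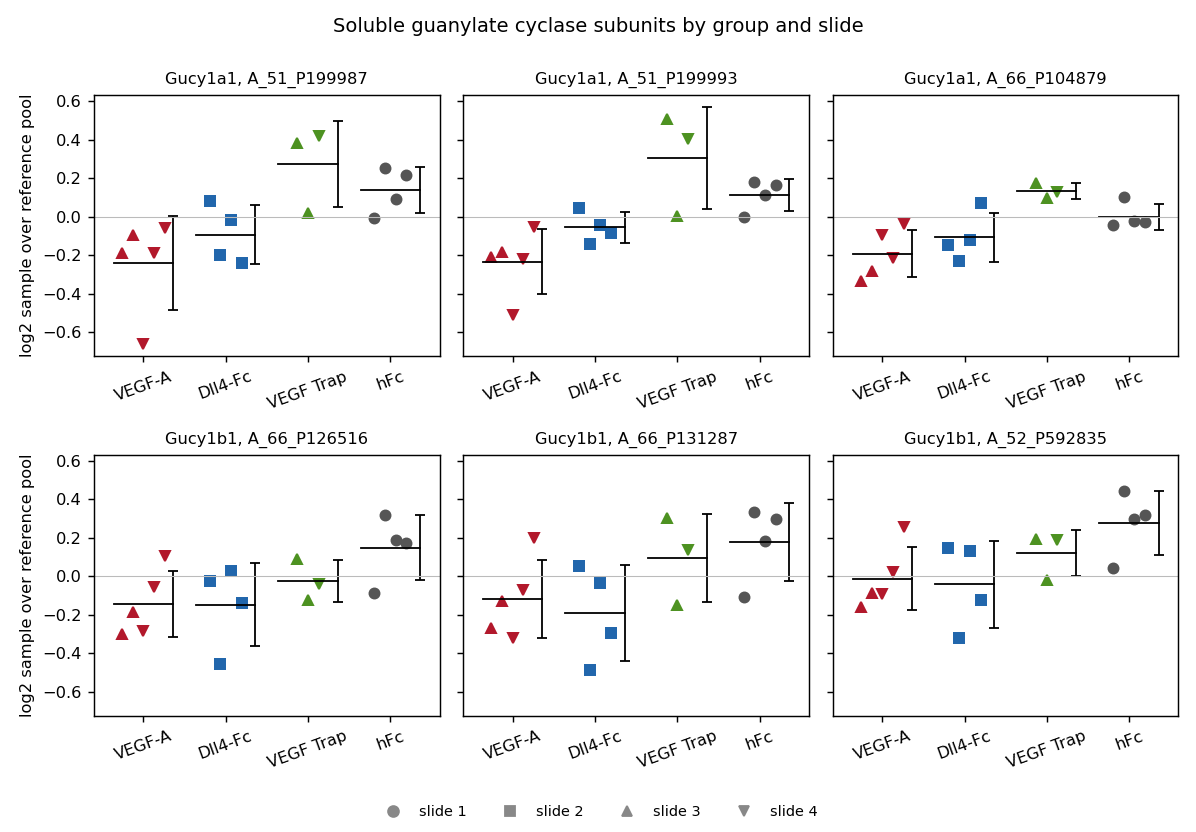
Log2 sample over reference on 3 probes of Gucy1a1 (top) and 3 of Gucy1b1 (bottom) for each array, with group means (line) and SDs (bar), and symbols for the slide. On A_51_P199993 of Gucy1a1 the VEGF-A samples, at -0.51 to -0.05, lie below the VEGF Trap samples, at 0.0027 to 0.51.

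Ace, the converting enzyme, was not called in any comparison of these ratios. On A_52_P68028 its means were -0.11 ± 0.22 (SD, n = 5) with VEGF-A, 0.07 ± 0.19 (n = 4) with Dll4-Fc, 0.09 ± 0.15 (n = 3) with VEGF Trap and 0.12 ± 0.27 (n = 4) with hFc. VEGF-A minus hFc was -0.23 ± 0.14 (adjusted p = 0.385), with a 95% interval from -0.53 to 0.08. The second probe, A_52_P72297, gave -0.31 ± 0.21 (adjusted p = 0.433), and there VEGF-A 3 stood at -0.97 while the other VEGF-A samples were at -0.24 to -0.06. Without VEGF-A 3 that difference was -0.14. In the Cy3 channel alone both probes were called lower in VEGF-A against hFc, at -0.63 and -0.69 (adjusted p = 0.00576 and 0.026). The median of all probes there was -0.30.

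Ren1, renin, had Cy3 signals of 12.1 to 44.4 on A_51_P316661 and 25.6 to 60.2 on A_52_P544060. On A_52_P544060 its means were 0.23 ± 0.20 (SD, n = 5) with VEGF-A, 0.39 ± 0.06 (n = 4) with Dll4-Fc, 0.18 ± 0.10 (n = 3) with VEGF Trap and 0.43 ± 0.08 (n = 4) with hFc. VEGF-A minus hFc was -0.20 ± 0.09 (adjusted p = 0.246) and VEGF Trap minus hFc was -0.25 ± 0.11 (adjusted p = 0.224). On A_51_P316661 these were -0.17 ± 0.14 and 0.06 ± 0.16, so the probes differed in direction for VEGF Trap. In the Cy3 channel alone A_52_P544060 was called lower in both comparisons, at -0.40 and -0.41 (adjusted p = 0.0136 and 0.0329). The median of all probes there was -0.30 and -0.26.

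Agtr1a, the type 1 angiotensin receptor, was high in a single control sample. In hFc 2 its probes A_51_P236439 and A_52_P645862 read 1.88 and 2.60, with Cy3 signals of 282 and 162. The other 3 hFc samples read -0.52 to -0.24 and -0.82 to -0.69. The 12 samples of the other groups read -0.85 to -0.02 on the first probe and -1.19 to -0.21 on the second. VEGF-A minus hFc was -0.78 ± 0.36 (adjusted p = 0.217) and -0.93 ± 0.55 (adjusted p = 0.354) with all arrays, and -0.23 ± 0.13 and -0.09 ± 0.22 without hFc 2. Dll4-Fc minus hFc was -0.63 and -0.85 with all arrays, and -0.07 and -0.01 without hFc 2. VEGF Trap minus hFc was -0.44 and -0.59 with all arrays, and 0.12 and 0.26 without it. None of these was called.

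Agtr2, the type 2 receptor, had Cy3 signals of 17.7 to 82.9 on A_51_P437976 and 2.99 to 24.7 on A_51_P437978. On slide 3 the VEGF-A samples read -1.36 and -1.18 on the first probe and -0.94 and -1.11 on the second, and the VEGF Trap samples read -0.0011 and 1.08 on the first and 0.84 and 1.05 on the second. On slide 4 the VEGF-A samples read 0.59, 0.19 and -0.19 on the first probe and 0.25, -0.09 and -0.36 on the second, and the VEGF Trap sample -0.30 and -0.48. VEGF-A was thus lower on slide 3 and higher on slide 4 by the means of both probes. VEGF-A minus VEGF Trap was -0.65 ± 0.39 (adjusted p = 0.29) and -0.92 ± 0.36 (adjusted p = 0.0941) over both slides, and -0.82 and -0.95 with slide as a block. It was -1.81 and -1.98 within slide 3 (adjusted p = 0.0933 and 0.0117), and 0.50 and 0.42 within slide 4. VEGF-A minus hFc was -0.64 ± 0.36 and 0.17 ± 0.33, opposite in sign, and hFc 4 was not well above background on the second probe. VEGF Trap minus hFc on that probe was 1.09 ± 0.37 (adjusted p = 0.129) with all arrays and 1.57 (adjusted p = 0.0427) without VEGF Trap 3. In the Cy3 channel alone A_51_P437976 was called lower in VEGF-A against hFc, at -0.92 (adjusted p = 0.0302), where the median of all probes was -0.30.

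Npr1, the receptor of atrial natriuretic peptide, had Cy3 signals of 2.42 to 48. In hFc 3 it was not well above background and read -2.26, while the other 3 hFc samples read 0.15 to 0.48. The means were -0.23 ± 0.42 (SD, n = 5) with VEGF-A, 0.24 ± 0.19 (n = 4) with Dll4-Fc, -0.07 ± 0.24 (n = 3) with VEGF Trap and -0.36 ± 1.27 (n = 4) with hFc. Dll4-Fc minus hFc was 0.60 ± 0.45 (adjusted p = 0.675) with all arrays and -0.03 ± 0.22 without hFc 3. VEGF-A minus hFc was 0.13 ± 0.43 (adjusted p = 0.898) with all arrays and -0.50 ± 0.21 (adjusted p = 0.193) without it. The sign of both differences rests on that array.

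**Figure D5:**
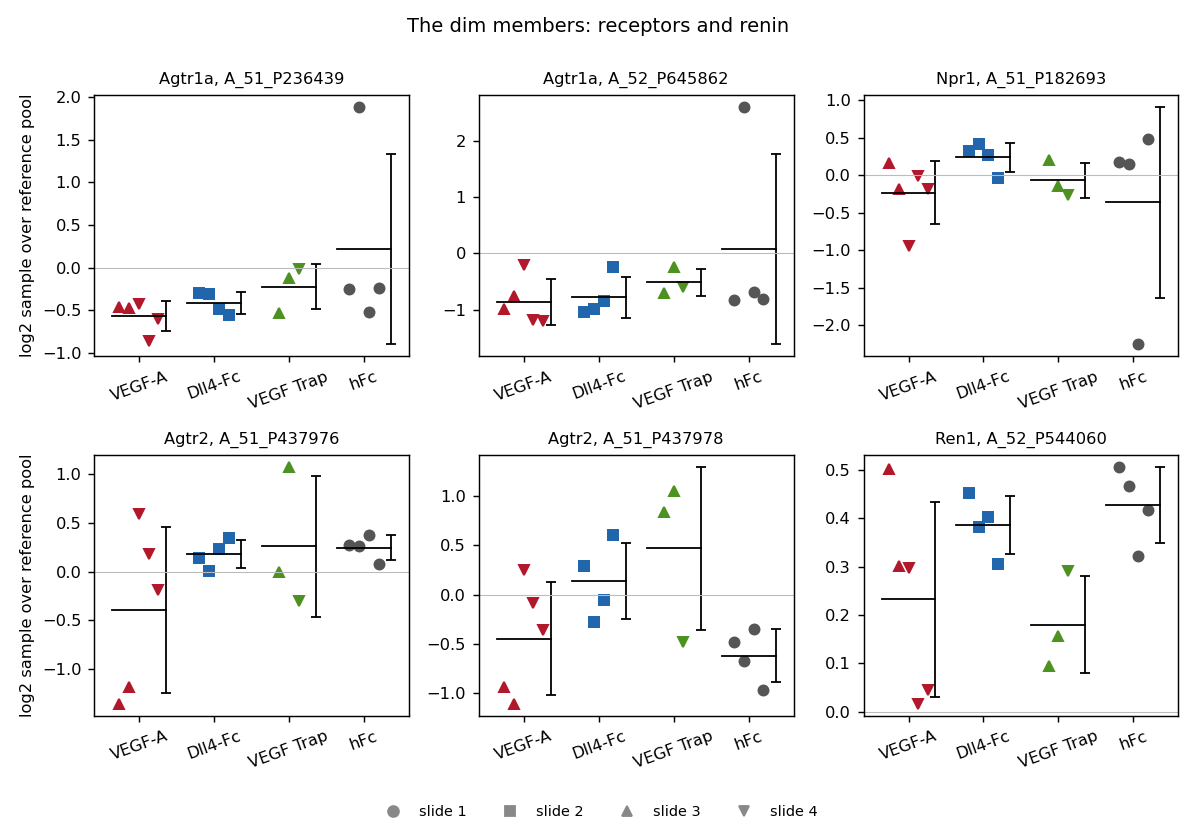
Log2 sample over reference for each array on probes of Agtr1a, Npr1, Agtr2 and Ren1, with group means (line) and SDs (bar), and symbols for the slide. hFc 2 stands at 1.88 and 2.60 for Agtr1a, hFc 3 at -2.26 for Npr1, and the VEGF-A arrays of slide 3 at -1.36 and -1.18 for Agtr2 on A_51_P437976.

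Other genes of the nitric oxide and cyclic GMP pathway were counted from a list of 27 with a value. In VEGF-A against hFc 6 rose and none fell (all probes 5.68% rising and 3.3% falling), with a median of -0.05. Nos2, the inducible nitric oxide synthase, rose by 1.54 ± 0.09 (adjusted p = 1.52e-08), Nostrin, which traffics the endothelial synthase, by 1.60 ± 0.10 (adjusted p = 3.72e-08), and Kcnmb1, a subunit of a smooth muscle potassium channel, by 1.75 ± 0.11 (adjusted p = 4.61e-08). In VEGF-A against VEGF Trap 9 rose and 1 fell (all probes 9.76% rising and 7.11% falling). Nos2 was 5.33-fold, Nostrin 6.22-fold and Kcnmb1 4.92-fold higher. With slide as a block 6 rose and none fell (all probes 6.98% rising and 4.85% falling). These 3 genes were called within slide 3, with differences of 2.39, 2.45 and 2.08. On slide 4, where VEGF Trap is 1 array, only the differences are given, at 2.50, 2.86 and 2.60. In VEGF Trap against hFc none rose and 3 fell (all probes 0.903% rising and 1.79% falling). Nostrin fell by 1.04 ± 0.12, Nos2 by 0.88 ± 0.10 and Kcnmb1 by 0.55 ± 0.13.

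With Dll4-Fc the largest change among the named genes of that list was in Cav1, caveolin-1, which binds and inhibits the endothelial synthase. It fell by 2.33 ± 0.12 against hFc (adjusted p = 3.09e-08, 5.03-fold lower), by 2.60 ± 0.11 against VEGF-A and by 2.42 ± 0.13 against VEGF Trap, with both of its probes called each time. In Dll4-Fc against hFc 2 of 27 rose and 2 fell (all probes 2.65% rising and 1.37% falling). Nostrin rose by 0.60 ± 0.11, on 1 of its 2 probes, and Gch1, which starts the synthesis of the synthases' cofactor, by 0.59 ± 0.13. In Dll4-Fc against VEGF-A none rose and 8 fell (all probes 5.42% rising and 6.71% falling). Kcnmb1 was at -1.94 and Nos2 at -1.51, after Cav1. In Dll4-Fc against VEGF Trap 5 rose and 2 fell (all probes 7.17% rising and 4.82% falling), with Nostrin at 1.64 and Nos2 at 0.91. Caveolin-1 is also known from Müller glia. Of 11 Müller glia markers none rose and 8 fell in Dll4-Fc against hFc (median -0.80), and their part in the Cav1 values was not tested.

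Of 15 other genes of the renin-angiotensin system, 1 rose and 3 fell in VEGF-A against hFc, with a median of -0.15. Of all probes 5.68% rose and 3.3% fell there. Anpep, a peptidase that breaks down angiotensins, fell by 1.42 ± 0.13 (adjusted p = 1.66e-06). It is also on the list of mural markers. In VEGF-A against VEGF Trap 2 rose and 2 fell (all probes 9.76% rising and 7.11% falling), with Anpep at -0.92. With slide as a block 1 was called, Anpep at -0.92 (adjusted p = 0.0106), where 6.98% of all probes rose and 4.85% fell. Within slide 3 Anpep was at -0.91 and not called (adjusted p = 0.0913), and within slide 4 it was at -0.93. In Dll4-Fc against hFc none rose and 1 fell (all probes 2.65% rising and 1.37% falling), with a median of -0.03. In Dll4-Fc against VEGF-A 1 rose, Anpep by 1.38 ± 0.13, and 2 fell, Enpep, which turns angiotensin II into angiotensin III, by 0.86 ± 0.20 and Thop1 by 0.22 ± 0.05. Of all probes 5.42% rose and 6.71% fell in Dll4-Fc against VEGF-A. In VEGF Trap against hFc and in Dll4-Fc against VEGF Trap limma called none of the 15, with medians of -0.14 and 0.15.

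Of 7 other natriuretic peptide genes Npr3, the clearance receptor that removes these peptides, was the only one called in the 6 comparisons by the probe that stands for each gene. It rose by 0.86 ± 0.15 in VEGF-A against hFc (adjusted p = 0.00186) and by 1.22 ± 0.17 in VEGF-A against VEGF Trap (adjusted p = 0.000123), on 1 of its 2 probes each time. Slide as a block gave 1.23 (adjusted p = 0.0111), slide 3 alone 1.12, not called (adjusted p = 0.142), and slide 4 alone 1.37. It fell by 1.401 ± 0.15 in Dll4-Fc against VEGF-A (adjusted p = 1.17e-05), while its other probe, A_51_P247184, was at -0.29 ± 0.15 (adjusted p = 0.274). Npr2, the receptor of C-type natriuretic peptide, was called on other probes of its 4. In VEGF-A against VEGF Trap A_52_P565549 was at -0.44 ± 0.12 (adjusted p = 0.0224) and A_52_P489373 at -0.44 ± 0.13 (adjusted p = 0.0322), while the probe that stands for it, A_51_P518940, was at -0.37 ± 0.13 (adjusted p = 0.0555). In VEGF-A against hFc A_52_P565549 was at -0.45 ± 0.11 (adjusted p = 0.0187) and A_51_P518940 at -0.11 ± 0.11 (adjusted p = 0.645). In Dll4-Fc against hFc, where Nppc rose, Npr2 on A_51_P518940 was at 0.04 (adjusted p = 0.949).

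Over 14 arrays the genes most like Nos3 in pattern were Pkn3 (Pearson r = 0.987), Btnl9 (0.985) and Tpm2 (0.985), chosen among named genes well above background in Cy3 on all arrays. For Agt, over the 12 arrays with a value, they were Efhd1 (0.981), Cryz (0.978) and Sbspon (0.977). For Nppc, over 16 arrays, they were Hsd17b13 (0.977), Ccl9 (0.961) and Gatm (0.958), and for Gucy1a1 they were Pitpnc1 (0.959), Tcaf1 (0.955) and Hdac9 (0.949). These values describe arrays that share groups and slides and carry no test.

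The retinal neuron list had no call in any comparison with hFc, and the list of pigment epithelium, ciliary body and lens markers had 1 fall of 10 in Dll4-Fc against hFc and none in VEGF-A or VEGF Trap against hFc. The mean ratio of that last list was -2.11 to -0.10 in VEGF-A samples, -1.66 to 0.01 in Dll4-Fc samples, -1.15 to 1.17 in VEGF Trap samples and -1.87 to 0.69 in hFc samples, wide within every group.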

How the data were processed

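RNA from 16 retina samples was hybridised to 2-colour Agilent mouse arrays, with the sample in Cy3 and a common pool in Cy5. Per the file headers, the authors' scans were read with Agilent Feature Extraction 9.5.1.1, which made background-subtracted, detrended and dye-normalized intensity values, with surrogates for dim spots, and the deposited log10 ratio of Cy5 over Cy3. The authors also deposited a table of natural log ratios of sample over pool, with no account of its processing in the sources used here. Its columns correlated with the scanner ratios at 0.999 or more, their medians were -0.0058 to 0.0218, and 25.1% to 27.5% of its cells were empty.

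The log10 ratios were turned to log2 of sample over pool. Control spots and spots marked as outliers were left out, spots of 1 probe were averaged, and 39787 of 43426 probes were kept, those whose Cy3 spot passed the software's background test on 3 arrays or more. Differences come from limma 3.58.1 in R 4.3.3 (lmFit and eBayes, two-sided, all 16 arrays in 1 fit, 12 residual degrees of freedom), with Benjamini-Hochberg adjustment over all probes kept within each comparison and a threshold of 0.05. The script was tested on simulated data. Symbols were updated through the RefSeq gene table by accession or symbol, and 7183 probes kept the name in the files. A gene on a list stands by its probe with values on the most arrays, then the highest mean Cy3 signal, and up to 3 called genes per list and comparison are named, by smallest p. Some listed genes are counted but not reported here by name. Lists covered renin-angiotensin, nitric oxide and natriuretic peptide genes, and markers of endothelium, mural cells, Müller glia, astrocytes, microglia, neurons, and pigment epithelium, ciliary body and lens. The members and lists were chosen with earlier results of these data known. Alternatives changed the background correction, the channel, the filter, the marked spots, the row trend, the source of the values, the slide, the samples in the fit and each replicate.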

Additional observations from a re-analysis of the deposited data

Results flagged for a closer look

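In 9 of 72 groups of 4 or 5 samples, 1 sample stood apart from the rest by Dixon's criterion. Chance meets it in about 1 in 20 independent groups, but these groups share arrays and several read the same gene. The count is therefore not a test of an excess. In hFc 2 both Agtr1a probes were high, at 1.88 on A_51_P236439 and 2.60 on A_52_P645862. The Npr1 probe stood low in hFc 3, at -2.26, where its spot was not well above background. VEGF-A 3 was low on A_52_P72297 of Ace, at -0.97, and on A_51_P199987 of Gucy1a1, at -0.66. Dll4-Fc 2 was the highest of its group on both Nos3 probes, at -0.15 on A_51_P139651 and -0.12 on A_66_P105929, and the lowest on A_51_P253303 of Gucy1b1, at -0.54. On A_66_P104879 of Gucy1a1 hFc 2 stood at 0.10, above the other hFc samples.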

How the results depend on the processing

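Over the alternatives, 2405 values of single probes stayed on their side of the threshold, 50 passed it newly and 23 no longer passed it. Of the 2405, 97 changed sign, none of them called under either setting, on probes of Ace, Agtr1a, Agtr2, Gucy1a1, Gucy1b1, Nos3, Npr1 and Ren1. In VEGF-A against hFc 2 member probes were called, against 16 in the Cy3 channel alone, 7 after normexp and loess, and 1 to 4 with single samples left out (1 without hFc 1, which alone carries the hFc value of a Nos3 probe, and 4 without VEGF-A 5, with 2 of Gucy1a1). In Dll4-Fc against hFc 1 was called, against 12 in the Cy3 channel alone, and 2 with marked spots kept and 2 with the authors' deposited ratios, where Agt gains a value. In VEGF Trap against hFc 0 were called, against 6 in the Cy3 channel alone, 1 with no filter on dim probes (a Nos3 probe), and 0 to 1 with single samples left out (1 without VEGF Trap 3). In VEGF-A against VEGF Trap 6 were called, against 3 with slide as a fixed block (all probes 6.98% rising and 4.85% falling), 3 within slide 3 (3.54% and 2.55%), 0 within slide 4 (0.919% and 0.126%), 3 with only these groups in the fit (7.77% and 4.7%), and 3 to 7 with single samples left out (3 without VEGF Trap 1). In Dll4-Fc against VEGF Trap 2 were called, and 2 to 4 with single samples left out (4 without VEGF Trap 2). In Dll4-Fc against VEGF-A 4 were called under every alternative run. Of all probes, 5.05% rose and 2.44% fell in VEGF-A against hFc without hFc 1, and 5.4% and 3.27% without VEGF-A 5. In VEGF Trap against hFc without VEGF Trap 3 these shares were 0.432% and 0.774%. They were 6.72% and 3.77% in VEGF-A against VEGF Trap without VEGF Trap 1. In Dll4-Fc against VEGF Trap without VEGF Trap 2 they were 7.13% and 4.49%. The cause of these changes was not tested beyond what the settings themselves remove. The Nos3, Agt and Nppc calls held under all alternatives run, except Nos3 within slide 4. Agt against hFc has no value without marked spots. Signals near the negative controls limit Agtr2 and Npr1. Averaging hFc 1 and hFc 2, whose titles share a code, left 2, 1 and 0 probes called in VEGF-A, Dll4-Fc and VEGF Trap against hFc. Fewer of all probes were called then. The shares rising and falling were 4.97% and 2.17% in VEGF-A, 2.33% and 1.12% in Dll4-Fc, and 0.504% and 0.882% in VEGF Trap. No paired analysis was possible because the sources used here do not say what the codes in the sample titles mean.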
